A study of Mus musculus with 8 samples.

Results

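The genes described here are 9 mouse genes of primordial germ cell (PGC) specification and survival: Prdm1, Prdm14, Tfap2c, Nanos2, Nanos3, Dppa3, Dnd1, Ifitm3 and Kit. They were taken by name from the 21352 genes listed for each library, and all 9 were found, all on autosomes. The assay was CUT&RUN, in which an antibody directs micrococcal nuclease to chromatin and the cut fragments are sequenced. One antibody recognised H3K27me3, a repressive histone mark that Polycomb proteins place, and the control antibody was IgG, whose reads measure untargeted cutting. PGCs were sorted from pooled embryos of 1 sex from B6 x Cast animals. All embryos carried Oct4-eGFP+/-, a fluorescent germ cell reporter, and an Xist knockout allele, as Xist KO/+ in females and Xist KO/Y in males. There were 5 groups with 1 library each: 2 of H3K27me3, both female (E11.5, E12.5), and 3 of IgG, of which E11.5 was male and E12.5 and E13.5 were female. A further 3 of the 8 listed samples, labelled as repeats of the H3K27me3 groups, were not analysed here.

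Each library gives, per gene, the reads assigned to the first and to the second allele of the hybrid. Which strain is which allele is not given in the sources used here. The libraries held between 1378513 and 5880641 allelic reads, and the median autosomal gene had between 23 and 91. A gene's level is its reads of both alleles, scaled to 1000000 reads of chromosomes 1 to 19 in the library. Counts cover whole genes and do not separate a promoter from a gene body, and no RNA was measured. Without a second library per group there was no spread between replicates, so levels carry no p-value. Intervals are exact 95% intervals that cover counting error only, and every comparison is between libraries rather than conditions. At E11.5 the H3K27me3 and IgG libraries also differed in sex.

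PGCs are set aside from the early embryo when bone morphogenetic protein signals induce a small transcription factor network, in which Prdm1 (also called Blimp1) represses the somatic programme, Prdm14 supports the return to a pluripotent-like state and Tfap2c acts with them. Further genes protect the new lineage: Nanos3 and Dnd1 are RNA-binding proteins needed for survival, Dppa3 (Stella) guards DNA methylation, Ifitm3 (Fragilis) is an early surface marker, and Kit is the receptor through which migrating PGCs receive survival signals. Nanos2 is a relative of Nanos3 that acts later, in the male germline, where it blocks entry into meiosis. H3K27me3 typically lies over silent developmental genes and is low over transcribed ones.

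The sequences around the start of 4 of these genes are shown because they span the range of CpG content in the set. They are taken from RefSeq on GRCm38.p6, cover 250 bases before to 50 after an annotated start, run 5′ to 3′ on the gene's strand, and carry each CpG (the letters CG, the same on both strands) in capitals. Of the 9 genes, 5 had an entry in the RefSeq promoter table: the 4 shown and Ifitm3. Prdm14, Tfap2c, Dppa3 and Dnd1 were not matched. The Nanos2 window is chr7:18987274-18987573 on the plus strand, Nanos3 chr8:84176503-84176802 on the minus strand, Prdm1 chr10:44458699-44458998 on the minus strand and Kit chr5:75574737-75575036 on the plus strand.
Nanos2: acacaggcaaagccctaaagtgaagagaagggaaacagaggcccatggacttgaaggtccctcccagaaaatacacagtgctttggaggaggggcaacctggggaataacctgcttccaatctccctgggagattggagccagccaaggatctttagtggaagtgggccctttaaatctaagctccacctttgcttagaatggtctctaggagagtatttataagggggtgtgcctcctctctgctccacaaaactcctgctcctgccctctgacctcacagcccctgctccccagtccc
Nanos3: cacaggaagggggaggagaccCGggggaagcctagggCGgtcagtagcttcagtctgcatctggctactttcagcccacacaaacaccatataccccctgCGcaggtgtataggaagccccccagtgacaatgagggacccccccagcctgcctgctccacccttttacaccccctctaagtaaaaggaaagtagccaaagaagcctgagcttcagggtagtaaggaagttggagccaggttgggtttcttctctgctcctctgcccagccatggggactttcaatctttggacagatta
Prdm1: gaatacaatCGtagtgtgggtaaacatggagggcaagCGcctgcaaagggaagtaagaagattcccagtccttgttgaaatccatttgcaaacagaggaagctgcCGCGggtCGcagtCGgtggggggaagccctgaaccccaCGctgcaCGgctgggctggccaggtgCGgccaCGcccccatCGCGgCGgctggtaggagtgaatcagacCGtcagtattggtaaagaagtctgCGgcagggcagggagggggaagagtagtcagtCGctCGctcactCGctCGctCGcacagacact
Kit: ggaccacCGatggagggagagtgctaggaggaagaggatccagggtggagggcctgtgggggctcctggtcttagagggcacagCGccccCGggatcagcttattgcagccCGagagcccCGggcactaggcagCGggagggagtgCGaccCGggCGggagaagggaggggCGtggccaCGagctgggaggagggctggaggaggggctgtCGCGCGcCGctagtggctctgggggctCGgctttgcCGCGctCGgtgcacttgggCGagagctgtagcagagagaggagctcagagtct

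The Nanos2 window held 0 CpG, as did 5.43% of the 32851 promoter windows in the table. Nanos3 held 3 and Ifitm3 5, both below the table's median of 7. Prdm1 and Kit each held 20, and 26.5% of windows held as many or more. Kit has a second listed start 4 bases downstream with 21 CpG. The Prdm1 window belongs to an annotated start within the gene's RefSeq span and not at its upstream end.

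**Figure D1:**
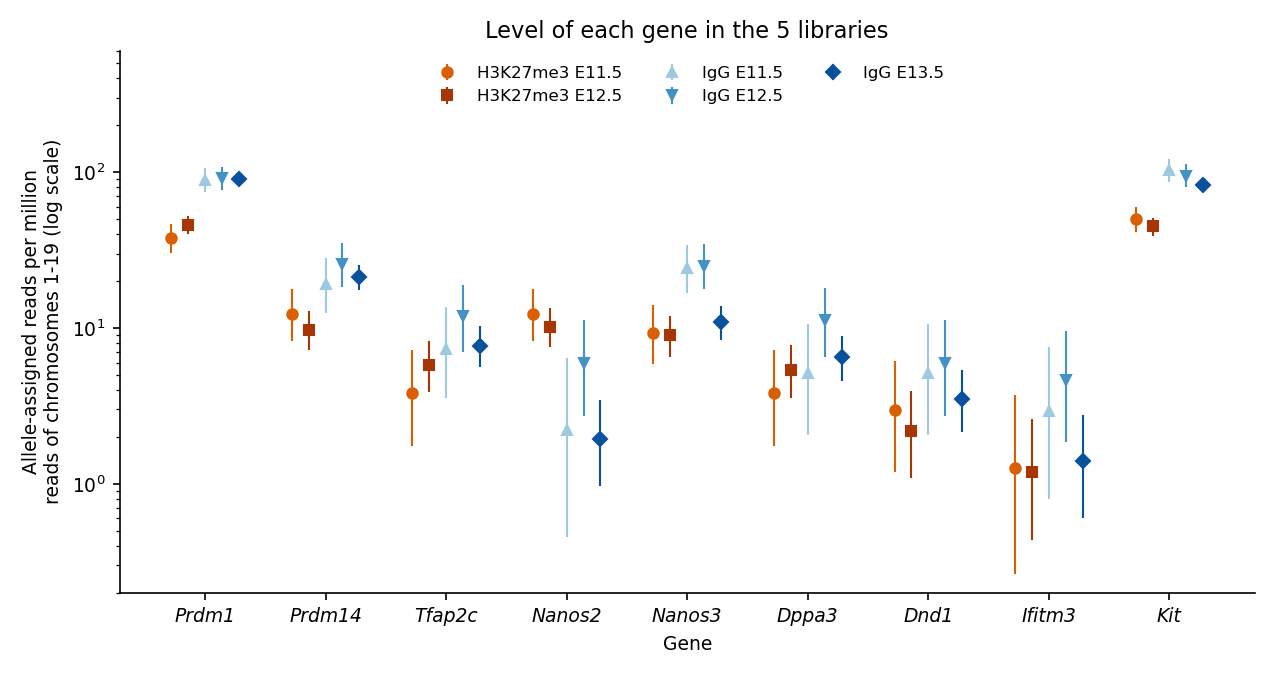
Level of the 9 genes in the 5 libraries, in allele-assigned reads scaled to 1000000 reads of chromosomes 1 to 19, on a log axis, with exact 95% Poisson intervals for counting error. Prdm1 and Kit sit lower in both H3K27me3 libraries than in the 3 IgG libraries, and Nanos2 sits higher.

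Among the transcription factors, Prdm1 had a lower level in H3K27me3 than in IgG. Prdm1, on chromosome 10 from 44437174 to 44528558 (RefSeq, GRCm38.p6), had levels of 37.8 and 46.0 in H3K27me3 at E11.5 and E12.5, and of 89.1, 91.7 and 90.4 in IgG at E11.5, E12.5 and E13.5. The H3K27me3 and IgG values did not overlap, and the IgG values lay close together. How many autosomal genes showed the same lack of overlap was not counted, here or for the genes below. Over IgG of the same stage the ratio was 0.424 (interval 0.319 to 0.562) at E11.5 and 0.502 (0.405 to 0.624) at E12.5. The median autosomal gene had ratios of 0.700 and 0.668, or -0.52 and -0.58 on the log2 scale, so most genes had a ratio below 1. Relative to the median gene Prdm1 stood at 0.606 and 0.751.

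Prdm14 and Tfap2c, the other transcription factors of the network, also had ratios below 1. Prdm14, on chromosome 1 from 13113428 to 13127163, had 29 and 49 reads in H3K27me3 and 26, 39 and 121 in IgG, which are levels of 12.3 and 9.76 against 19.2, 25.7 and 21.2. All H3K27me3 levels lay below all IgG levels. Its ratio was 0.643 (0.365 to 1.14) at E11.5, where the interval includes 1, and 0.379 (0.244 to 0.593) at E12.5. Tfap2c, on chromosome 2 from 172545678 to 172558622, had levels of 3.82 and 5.78 in H3K27me3 and 7.37, 11.9 and 7.71 in IgG. The groups did not overlap, but the H3K27me3 levels rest on 9 and 29 reads. At E11.5 its 19 reads in the pair fell short of the 20 required for a comparison, and at E12.5 its ratio was 0.486 (0.261 to 0.930).

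The RNA-binding relatives Nanos2 and Nanos3 lay on opposite sides of IgG. Nanos2, on chromosome 7 from 18987524 to 18988962, had 29 and 51 reads in H3K27me3, against 3, 9 and 11 in IgG at E11.5, E12.5 and E13.5. Its levels were 12.3 and 10.2 in H3K27me3 and 2.21, 5.94 and 1.93 in IgG, so both H3K27me3 libraries lay above all IgG libraries. Per kb of listed gene length, Nanos2 had levels of 7.87 and 6.50 in H3K27me3, while the other 8 genes ranged from 0.414 to 1.17 and from 0.504 to 1.39. In the 3 IgG libraries its per-kb levels of 1.41, 3.80 and 1.23 lay within the range of the other 8 genes. The listed lengths of Nanos3 (11487 bases) and Tfap2c (9030) differ from their RefSeq spans (2820 and 12945). Per kb of RefSeq span, Nanos2 had 8.55 and 7.06 in H3K27me3, and Nanos3, then the highest of the other 8, had 3.31 and 3.18. Reads per length also depend on how many strain variants a gene holds, which was not counted.

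The ratio of Nanos2 over IgG was 5.57 at E11.5, with a wide interval of 1.73 to 28.6 because the IgG library held 3 reads. That ratio exceeded those of 95.1% of autosomal genes. At E12.5 it was 1.71 (0.834 to 3.95), which includes 1, and the percentile was 79.8. The E12.5 value varied with the control: against IgG E13.5 the ratio was 5.27, and against the reads of all 3 IgG libraries 3.79. Between the IgG libraries the Nanos2 level itself differed, with E13.5 at 0.325 (0.122 to 0.886) of E12.5. Between E11.5 and E12.5 the H3K27me3 level of Nanos2 had a ratio of 0.825 (0.513 to 1.35).

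Nanos3, on chromosome 8 from 84173733 to 84176552, had levels of 9.34 and 8.96 in H3K27me3 and 24.3, 25.1 and 10.9 in IgG, with no overlap. Its ratio was 0.384 (0.213 to 0.679) at E11.5 and 0.358 (0.227 to 0.566) at E12.5. The E13.5 IgG library was much lower than the other IgG libraries, at 0.433 (0.285 to 0.667) of IgG E12.5. Against IgG E13.5 the ratios of Nanos3 were 0.859 and 0.825, so how far it lay below background depended on the control. The files count Nanos3 over 11487 bases, where the RefSeq span is 2820 bases, so its reads may come in part from sequence outside the RefSeq gene.

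Dppa3, Dnd1 and Ifitm3 are short genes with few allelic reads. Dppa3, on chromosome 6 from 122626424 to 122630271, had levels of 3.82 and 5.38 in H3K27me3 and 5.16, 11.2 and 6.49 in IgG, with a ratio of 0.480 (0.252 to 0.938) at E12.5. Its H3K27me3 and IgG ranges overlapped. Dnd1, on chromosome 18 from 36763671 to 36766214, had levels of 2.97 and 2.19 in H3K27me3 and 5.16, 5.94 and 3.51 in IgG, with a ratio of 0.369 (0.139 to 1.01) at E12.5 on 20 reads. Ifitm3, on chromosome 7 from 141009590 to 141010744, had 3 and 6 reads in H3K27me3 and 4, 7 and 8 in IgG, too few for a comparison at either stage. Dppa3 and the Ifitm genes have close copies elsewhere in the genome, so the assignment of their reads is uncertain. Dnd1 overlaps Wdr55 in RefSeq, and reads of the shared stretch cannot be told apart here.

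Kit, the receptor tyrosine kinase, was among the best covered of the 9 genes and lay below IgG at both stages. Kit, on chromosome 5 from 75574987 to 75656722, had 118 and 225 reads in H3K27me3 and 140, 144 and 470 in IgG. Its levels were 50.1 and 44.8 in H3K27me3 and 103.1, 95.02 and 82.4 in IgG, with no overlap. The ratio over IgG was 0.486 (0.377 to 0.625) at E11.5 and 0.472 (0.381 to 0.586) at E12.5, and 0.608 and 0.544 against IgG E13.5. Relative to the median gene, with IgG of the same stage, Kit stood at 0.694 at E11.5 and 0.706 at E12.5.

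**Figure D2:**
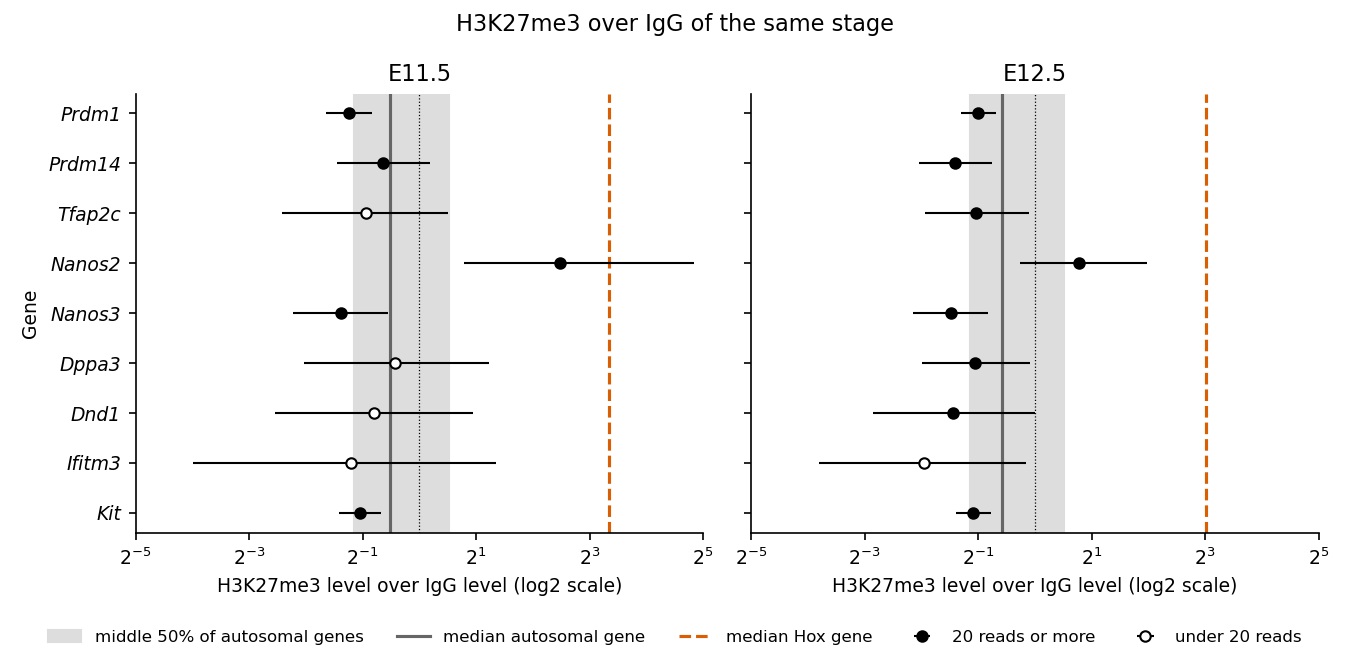
H3K27me3 level over the IgG level of the same stage for the 9 genes, on a log2 axis, with exact 95% intervals for counting error; open symbols have under 20 reads in the pair. Nanos2, at 5.57 and 1.71, is the gene to the right of 1, while the Hox medians stand at 10.1 and 8.04.

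Of the 9 genes, 5 had enough reads for the E11.5 comparison and 8 for E12.5. At E11.5, 1 gene (Nanos2) was at least 2-fold higher than IgG, where 17.9% of the 15050 autosomal genes tested were, and 3 (Prdm1, Nanos3 and Kit) were at least 2-fold lower, where 32.2% of autosomal genes were. Relative to the median gene the lower count at E11.5 was 0 of 5, where 8.88% of autosomal genes were lower. Against IgG E13.5, 2 of 8 genes were 2-fold lower at E11.5, where 30.4% of autosomal genes were. They were Prdm1 (0.418) and Tfap2c, whose levels were 3.82 on 9 reads in H3K27me3 and 7.71 in IgG E13.5. Nanos3 and Kit were no longer 2-fold lower with that control. At E12.5, 0 genes were 2-fold higher, against a background of 16.4%. A 2-fold lower level was found for 6 of 8 (Prdm14, Tfap2c, Nanos3, Dppa3, Dnd1 and Kit), against 32.9% of 16526 autosomal genes. This count depended on the scale and the control. With ratios set relative to the median gene it was 0 of 8, where 6.41% of autosomal genes were lower. Against IgG E13.5 it was 1 of 8, where 28.0% were. The median ratio was 0.486 over the 5 genes and 0.476 over the 8. In the housekeeping list, whose members are transcribed in most cells, it was 0.428 at both stages.

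Between E11.5 and E12.5, 0 of 7 genes with enough reads differed 2-fold in H3K27me3 level in either direction, near the background of 1.60% of autosomal genes higher and 1.23% lower. The ratios ran from 0.793 (0.491 to 1.30) for Prdm14 to 1.51 (0.697 to 3.63) for Tfap2c, and the interval of each of the 7 includes 1. For Tfap2c, Dppa3 (1.41, 0.643 to 3.40) and Prdm14 the interval also reaches past 2-fold. Between the female IgG libraries, in contrast, 2 of 8 genes (Nanos2 and Nanos3) were 2-fold lower at E13.5 than at E12.5, against 7.45% of autosomal genes, and 0 were higher (5.03% of autosomal genes).

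Signals and partners around the network lay on both sides of IgG. The list held the inducing ligands and their receptors and effectors, early mesoderm and epiblast factors, and the Kit ligand and chemokine genes, with 19 names found and 18 testable. At both stages 8 of 18 were at least 2-fold higher than IgG, and at the earlier and later stage 6 and 3 were 2-fold lower. The list's median ratio was 1.19 and 0.973. The highest at E12.5 were Eomes (6.75, 3.71 to 13.7), a T-box factor of early mesoderm, and Otx2 (5.75, 3.54 to 10.0), a homeobox factor that restrains germ cell entry. The lowest were Bmpr2, a receptor subunit for bone morphogenetic proteins (0.466, 0.366 to 0.595), and Prmt5, an arginine methyltransferase and partner of Prdm1 (0.474, 0.266 to 0.863). Kitl, which encodes the ligand of Kit and is made by somatic cells, had 439 and 967 reads in H3K27me3 and ratios of 2.02 and 2.37, where Kit had 0.486 and 0.472. Kitl was singled out after its values were seen.

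Among paralogs of the germ cell genes, the Tfap2 genes lay above IgG. The 4 Tfap2 paralogs had ratios from 3.31 to 11.6 at E11.5 and from 1.90 to 11.46 at E12.5, and 4 and 3 of them were 2-fold higher, while Tfap2c stood at 0.486 at E12.5. Tfap2b, a regulator of neural crest and kidney development, had 379 and 797 reads in H3K27me3 against 23 and 21 in IgG, and the list's highest ratio at E12.5 (11.46, 7.44 to 18.6). Of 12 listed Prdm paralogs, 11 were testable and spread widely. At E12.5, 4 were 2-fold higher, led by Prdm8 (8.79, 6.07 to 13.2), a neural regulator, and 4 were 2-fold lower, with Prdm10 lowest (0.344, 0.287 to 0.413).

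The 4 receptor paralogs of Kit (Pdgfra, Pdgfrb, Csf1r and Flt3) had ratios from 2.27 to 4.69 at E11.5 and from 1.16 to 4.46 at E12.5. In the Ifitm family, 2 of 6 paralogs could be tested at E12.5, with ratios of 0.423 and 0.656. Among the listed Dppa genes, which share a name with Dppa3 and not its sequence family, Dppa2 had the lower ratio of the 2 testable (0.357, 0.219 to 0.585). Over all 30 listed genes, which include these Dppa genes, 13 of 22 testable were 2-fold higher and 5 lower at E11.5. At E12.5 the counts were 10 and 6 of 23, and the medians were 2.87 and 1.87. No test compares this list with the germ cell genes.

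Reference lists placed these values on a scale. Of the Hox genes, the classical Polycomb targets, 29 of 29 testable at E11.5 and 32 of 32 at E12.5 were 2-fold higher, with median ratios of 10.1 and 8.04 that lie above every germ cell gene at both stages. Hoxd3 and Hoxd10 were highest at E12.5 (15.6 and 14.3) and Hoxb8 and Hoxd8 lowest (2.46 and 2.64). In the housekeeping list 0 of 11 and 0 of 15 were higher and 9 and 11 were 2-fold lower, with Aldoa and Gapdh lowest at E12.5 (0.121 and 0.226) and Rpl3 highest (1.70).

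Markers of the cell types that a gonad holds were read for their mark, since the label of the sorted cells cannot be checked by expression here. Of the germ cell markers, 1 of 6 testable at E12.5 was 2-fold higher, Tex101 (3.60), and the next was Pou5f1 (1.02), the gene behind the reporter. Sall4 (0.440) and Ddx4 (0.494), a germline RNA helicase, were lowest. All 9 testable somatic gonad markers were 2-fold higher at both stages, with median ratios of 5.79 and 4.42, led by Fst (10.97) and Emx2 (8.80) and lowest for Nr5a1 (2.41) and Wnt4 (2.60). Blood and endothelial markers were mixed: 1 of 8 was 2-fold higher at E12.5, Tal1 (7.11), followed by Spi1 (1.84), and Pecam1 (0.410) and Klf1 (0.453) were lowest.

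Nanos2 and Kit have genes both above and below IgG in their surroundings. Within 100 kb of Nanos2, 9 genes had enough reads at E12.5, and 3 of them were 2-fold higher than IgG. Nova2, a neuronal splicing regulator 22.2 kb away, had ratios of 4.59 and 3.26 (2.63 to 4.08), Foxa3, a forkhead factor of endoderm 24.3 kb away on the other side, 1.83 and 2.57 (1.60 to 4.39), and Rsph6a, a sperm flagellum gene 65.7 kb away, 4.42 and 2.84 (2.06 to 4.00). Mypop, which lies 2.28 kb from Nanos2, had 1.15 and 0.794 (0.503 to 1.29). Of the others, 3 were 2-fold lower at E12.5. The background was 16.4% of autosomal genes higher and 32.9% lower. Nanos2 thus lies among genes on both sides of IgG.

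Kit has no other listed gene within 100 kb. The closest are Kdr, the endothelial growth factor receptor 276.1 kb away, with ratios of 1.84 (1.43 to 2.401) and 1.72 (1.37 to 2.18), and Pdgfra, a growth factor receptor of mesenchyme 376.8 kb away, with 4.46 (3.51 to 5.74) and 4.46 (3.62 to 5.55). Gsx2, a neural homeobox gene 497.1 kb away, had 64 and 125 reads in H3K27me3 against 2 and 3 in IgG, and ratios of 18.4 (4.90 to 155.5) and 12.6 (4.21 to 61.8). The intervals of all 3 lie above those of Kit at both stages. These 3 genes were singled out for their levels after the values were seen. Of the remaining genes within 1000 kb, Gm7271 had a ratio of 1.55 at E12.5. All the rest had E12.5 ratios below 1, from 0.430 for Cep135 to 0.945 for Nmu.

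**Figure D3:**
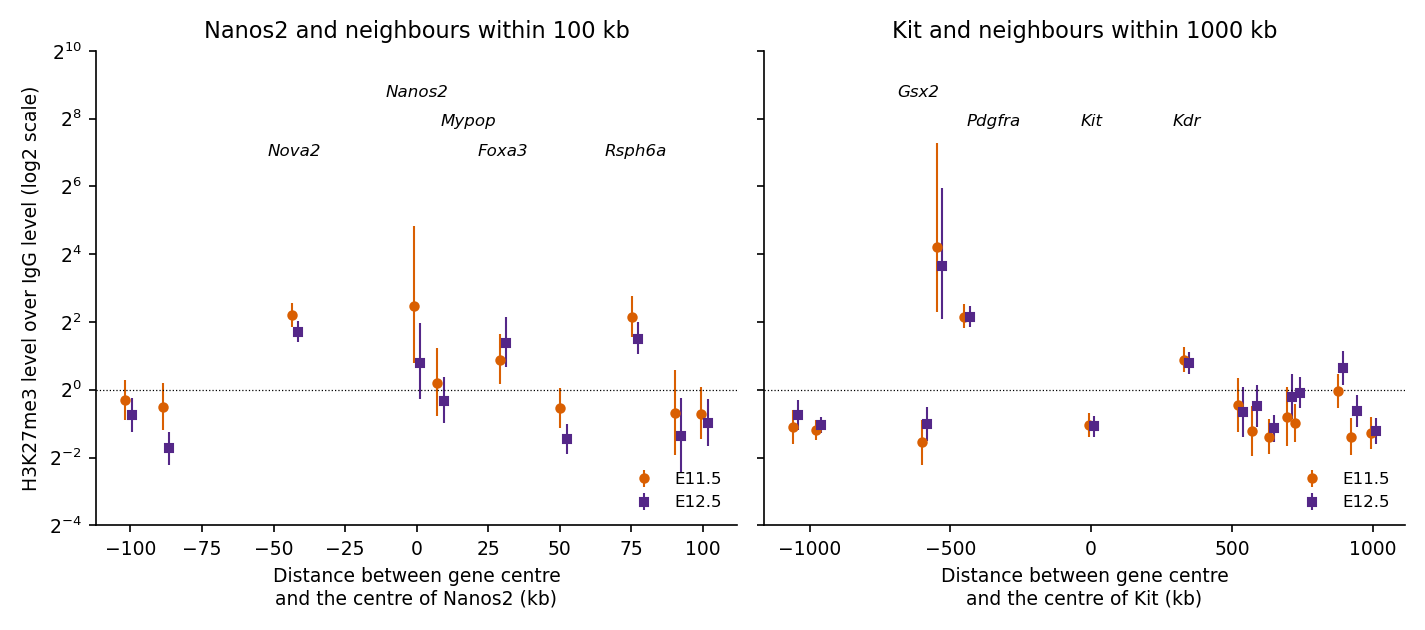
H3K27me3 level over IgG level (log2 axis, exact 95% intervals for counting error) by distance from Nanos2 (left, genes within 100 kb) and from Kit (right, genes within 1000 kb), at both stages. Nova2, Foxa3 and Rsph6a stand above 1 on either side of Nanos2, and Kit stands at 0.486 and 0.472 between Pdgfra and Kdr.

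The reads were also divided by allele. The second-allele share is the percent of a gene's reads on the second allele, and it was tested in each library against the pooled share of chromosomes 1 to 19 (50.8% to 51.6%) with an exact binomial test. Adjusted p-values are Benjamini-Hochberg values over all autosomal genes with 10 or more reads. Prdm1 had shares of 49.4% and 46.3% in H3K27me3 and 46.3%, 48.2% and 48.3% in IgG, the last on 516 reads (43.9 to 52.7). Prdm14 ran from 41.4% to 61.5%, Nanos3 from 40.0% to 53.2%, and Tfap2c from 45.5% to 70.0% in the libraries with 10 or more reads. None of these was called in any library. Toward the first allele 4.98% and 7.98% of autosomal genes were called in H3K27me3 at E11.5 and E12.5, and 0.456%, 0.280% and 2.03% in IgG at E11.5, E12.5 and E13.5, against 0 of the 5, 8, 5, 6 and 8 members tested.

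Nanos2 had 20 of 29 reads on the second allele in H3K27me3 at E11.5 (69.0%, 49.2 to 84.7; exact binomial test, adjusted p = 0.29) and 28 of 51 at E12.5 (54.9%, 40.3 to 68.9; adjusted p = 0.839). Dnd1 had 9 of 11 at E12.5 (81.8%, 48.2 to 97.7; exact binomial test, adjusted p = 0.238). Dppa3 lay below 50% where it had 10 reads or more, at 40.7% in H3K27me3 E12.5 and 29.4% and 37.8% in IgG E12.5 and E13.5, and was not called. Ifitm3 never reached 10 reads. At these depths only large imbalances could have been called.

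**Figure D4:**
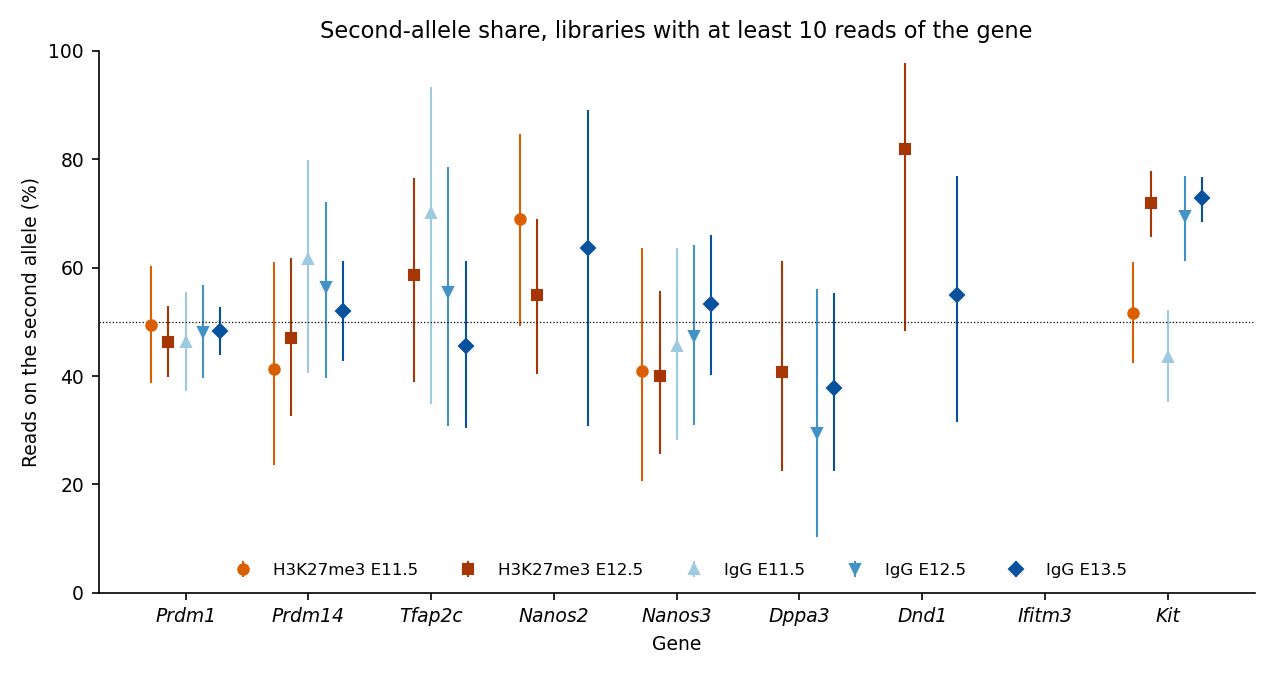
Second-allele share of the 9 genes in each library with at least 10 reads of the gene, with exact 95% intervals for counting error; the dotted line marks 50%. Kit stands at 72.0%, 69.4% and 72.8% in the E12.5 and E13.5 libraries and at 51.7% and 43.6% in the E11.5 libraries, and Ifitm3 has no point.

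Kit was tilted toward the second allele in 3 of the 5 libraries, with either antibody. In IgG it had 61 of 140 reads on the second allele at E11.5 (43.6%, 35.2 to 52.2), 100 of 144 at E12.5 (69.4%, 61.2 to 76.8) and 342 of 470 at E13.5 (72.8%, 68.5 to 76.7). In H3K27me3 it had 61 of 118 at E11.5 (51.7%, 42.3 to 61.0) and 162 of 225 at E12.5 (72.0%, 65.6 to 77.8). The intervals of the E11.5 libraries do not overlap those of the later libraries.

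The exact binomial test called Kit in H3K27me3 E12.5 (adjusted p = 4.54e-09), IgG E12.5 (adjusted p = 0.000653) and IgG E13.5 (adjusted p = 2.3e-19), and not in H3K27me3 E11.5 (adjusted p = 1) or IgG E11.5 (adjusted p = 0.574). Kit was the 1 gene of the 9 called in each of those 3 libraries, of 8, 6 and 8 genes tested, where 9.48%, 3.19% and 5.84% of autosomal genes were called toward the second allele. With 0 of 5 genes called in H3K27me3 E11.5 and 0 of 5 in IgG E11.5, 0 had an unadjusted p under 0.05 there. In those libraries 6.69% and 3.21% of autosomal genes were called toward the second allele.

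Pairs of libraries were compared with Fisher's exact test on reads by allele, adjusted over all autosomal genes with 10 reads or more in both. Kit rose by 20.3 points from H3K27me3 E11.5 to E12.5 (Fisher's exact test, adjusted p = 0.0444, and 0.0374 with a minimum of 20 reads), where 0.150% of 15297 autosomal genes were called higher and 0.379% lower. From IgG E11.5 to IgG E12.5 it rose by 25.9 points (Fisher's exact test, adjusted p = 0.00794), where 0.111% of 13541 genes were called higher and 0.148% lower. That second comparison was added after the data were seen, shares no library with the first, and sets females against males, so that stage and sex cannot be told apart in it. Between IgG E12.5 and E13.5, both female and also added after the data were seen, the difference was 3.32 points (Fisher's exact test, adjusted p = 1), and 0 of 6 members tested were called, where 0.253% of autosomal genes were called higher and 0.109% lower. The other 4 members tested in each of the stage comparisons were not called.

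Between H3K27me3 and IgG of the same stage Kit was not called, with differences of 8.12 points at E11.5 (Fisher's exact test, adjusted p = 0.818) and 2.56 points at E12.5 (adjusted p = 1). Against IgG E13.5 in place of IgG E11.5, the E11.5 H3K27me3 library did differ (Fisher's exact test, adjusted p = 0.00134), as did 4.12% of autosomal genes in either direction. The other members testable in these comparisons, 3 at E11.5 and 5 at E12.5, were not called. The backgrounds were 1.32% of autosomal genes called higher and 0.853% lower at E11.5, and 1.04% and 1.31% at E12.5.

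The alleles of Kit were also compared by level. From IgG E11.5 to E12.5 the first-allele level went from 58.2 to 29.0, a ratio of 0.499 (0.337 to 0.730), and the second-allele level from 44.9 to 66.0, a ratio of 1.47 (1.06 to 2.05). Both alleles together had a ratio of 0.921 (0.725 to 1.17). From H3K27me3 E11.5 to E12.5 the first-allele level went from 24.2 to 12.55 (0.519, 0.357 to 0.756) and the second from 25.9 to 32.3 (1.25, 0.923 to 1.70), where the interval includes 1. Over IgG of the same stage each allele of Kit was low in H3K27me3, at 0.416 and 0.576 for the first and second allele at E11.5 and 0.432 and 0.489 at E12.5.

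Shares of the genes around Kit were set beside its own, with no test between genes. Within 1000 kb, 13 or 14 other genes had 20 reads or more in a library, and their median share was 52.1% in H3K27me3 E12.5, 52.3% in IgG E12.5 and 48.9% in IgG E13.5. Kit lay above the highest of them in all 3 libraries: Tmem165 at 64.1%, and Srd5a3, a steroid reductase family gene, at 64.0% and 67.6%. Srd5a3, 483.6 kb from Kit, was at 57.6% and 42.3% in the E11.5 H3K27me3 and IgG libraries. Pdgfra and Kdr, the nearest well-covered genes, had 36.8% and 52.8% in IgG E12.5 and 55.1% and 54.0% in IgG E13.5. Srd5a3 rests on 25 and 111 reads in those libraries and Tmem165 on 78 in H3K27me3 E12.5, so their shares are less precise than that of Kit.

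Among 5400 autosomal genes with at least 50 reads in the 4 libraries of E11.5 and E12.5, 8 rose by 20 points or more between the H3K27me3 libraries and 37 between the IgG libraries. Kit was the 1 gene that did so in both. The limit of 20 points was set after the values were seen and lies just under Kit's own difference of 20.3 points, so this count describes Kit and tests nothing. In the other direction 15 genes fell by as much in both, 14 of them on chromosome 17.

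**Figure D5:**
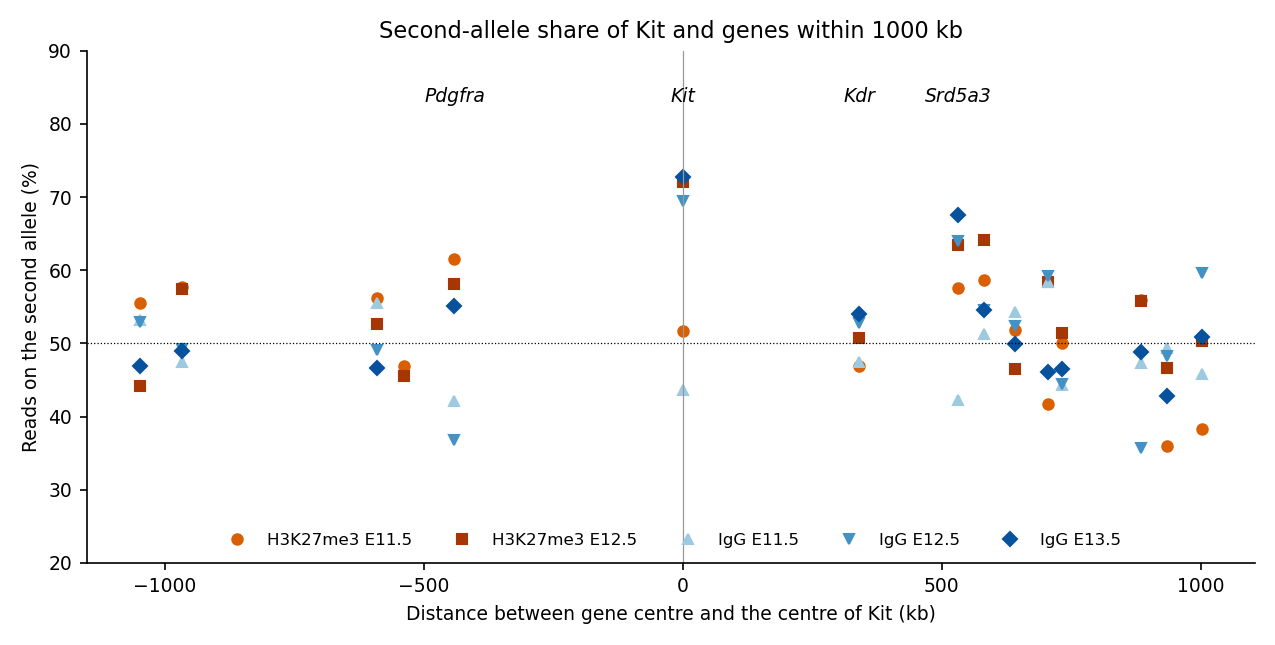
Second-allele share of Kit and of genes within 1000 kb, by distance between gene centres, for each library with at least 20 reads of the gene; symbols stand for the 5 libraries. At the position of Kit the E12.5 and E13.5 libraries lie between 69.4% and 72.8%, above all their neighbours, and the E11.5 libraries lie at 51.7% and 43.6%.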

How the data were processed

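CUT&RUN reads of 5 libraries were analysed, 1 per group, grouped by their titles. The members, gene lists and tests were chosen with earlier results of these data known. The authors deposited whole-number counts per gene for each of a pair of alleles, not normalised, with the second-allele reads as a fraction of both, which was recomputed from the counts. Per the submitters' processing notes, the tools included Trim Galore 0.6.6, Bowtie2 2.4.2, SAMtools 1.11, GATK and featureCounts and the build was mm10; the sources used here do not say how alleles were assigned, whether strand was used or duplicates removed. PCR duplicates may remain, so intervals cover counting error only. Reads without a strain variant carry no allele information.

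Levels were scaled to the reads of chromosomes 1 to 19 (95.6% to 98.5% of a library). Ratios required 20 reads in the pair, a library at 0 was set to a floor of 3 reads, and 2-fold was the threshold. Gene positions and promoters came from RefSeq (GRCm38.p6). Shares used exact binomial and Fisher's exact tests (two-sided, Benjamini-Hochberg, threshold 0.05; scipy 1.17.1), checked on simulated data. All 9 members are named; of each list, the 2 highest and 2 lowest at E12.5 are named, and neighbours within 100 kb (1000 kb for Kit shares) could be named, except items that are not reported here. Alternatives were the IgG control, minimum reads, pseudocount, scaling, fold threshold and expected share.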

Additional observations from a re-analysis of the deposited data

How the results depend on the processing

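With 1 library per group no replicate could be left out. No paired analysis was possible because each group had 1 library with values. At E11.5, 0 of 4 genes were 2-fold higher than IgG with a minimum of 50 reads, which drops Nanos2, as were 20.2% of autosomal genes. Relative to the median gene 0 of 5 were 2-fold lower, as were 8.88% of autosomal genes. At E12.5 the count of genes past the threshold above IgG, reported as 0, was 1 under some settings. With IgG E13.5 as control it was 1 of 8, where 16.998% of autosomal genes were past it. With the 3 IgG libraries summed it was 1 of 9 (15.6%). Relative to the median gene it was 1 of 8 (27.05%), and at 1.5-fold also 1 of 8 (23.7%). The count of lower genes at E12.5 was 1 of 8 with IgG E13.5 (28.0% of autosomal genes) and 1 of 9 with summed IgG (30.5%). It was 3 of 5 with a minimum of 50 reads (31.8%) and 0 of 8 relative to the median gene (6.41%). With the pseudocount it was 4 of 8 (29.5%), with a minimum of 10 reads 7 of 9 (33.0%) and at 1.5-fold 7 of 8 (49.9%). Between the H3K27me3 stages 1 gene was higher at 1.5-fold, as were 6.44% of autosomal genes. Between the female IgG libraries 1 gene was lower with a minimum of 50 reads and 5 at 1.5-fold, as were 5.23% and 24.0% of autosomal genes. For allele shares, 1 gene (Kit) was called between H3K27me3 E11.5 and IgG when IgG E13.5 was the control, as were 4.12% of autosomal genes. Over these settings, 8.88% to 47.9% of autosomal genes passed the threshold below IgG at E11.5. For E12.5 this share ran from 6.41% to 49.9%. Both upper ends were reached with the threshold lowered to 1.5-fold. With 2-fold kept, no setting gave more than 32.2% for E11.5 or 33.0% for E12.5. The share past the threshold above IgG ran from 16.2% to 25.8% for E11.5 and from 15.2% to 27.05% for E12.5. The Kit calls in single libraries and between stages held under every setting tried. Depth limits Ifitm3, Dnd1, Dppa3, Tfap2c and, through its IgG reads, Nanos2.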

Other observations

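Around Dnd1, Dppa3 and Ifitm3, testable neighbours within 100 kb lay on both sides of IgG at E12.5. Those of Nanos3, Prdm14 and Tfap2c all lay below IgG, with 1 testable neighbour each for Prdm14 and Tfap2c. Nanog, a pluripotency factor gene 77.2 kb from Dppa3, had ratios of 0.524 and 0.704 (0.309 to 1.75 at E12.5). Cd14, a receptor gene of myeloid cells 36.9 kb from Dnd1, had 59 and 82 reads in H3K27me3 at E11.5 and E12.5 against 3 and 9 in IgG of the same stage, and ratios of 11.3 and 2.75 (1.38 to 6.23). Around Nanos3, 7 of 8 testable neighbours within 100 kb were at least 2-fold lower than IgG at E12.5 and 0 were higher. The background was 32.9% of autosomal genes lower and 16.4% higher. At E11.5, where 32.2% of autosomal genes were 2-fold lower, only 4930432K21Rik (0.378), Zswim4 (0.371) and Ccdc130 (0.312) were. Rfx1, Dcaf15, Podnl1, Cc2d1a and Mri1 had E11.5 ratios from 0.521 to 0.890.

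The ratio to IgG was also read by CpG content near the start. At E12.5 the median ratio was 1.60 over 414 genes with 0 CpG in their window, the class of Nanos2, and 37.0% of them were 2-fold higher than IgG. Over 5803 genes with 20 CpG or more, the class of Kit and Prdm1, it was 0.509, and 8.48% were higher. Over 3861 genes with 1 to 9 CpG, the class of Nanos3 and Ifitm3, it was 1.20, and 25.7% were higher. Nanos3 itself had a ratio of 0.358, far below the median of its class. Whether CpG content bears on the levels of the 9 genes was not tested. At E11.5 the medians were 1.01 over 299 genes with 0 CpG and 0.521 over 5439 with 20 or more, and 15.4% and 11.9% were higher. The 3382 genes with 1 to 9 CpG had a median of 1.08 at E11.5, with 23.4% higher, so the class with 0 CpG was not the highest at that stage.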
